A study of Mus musculus with 27 samples.

Results

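The 9 genes described here, Nqo1, Hmox1, Gclc, Gclm, Txnrd1, Srxn1, Slc7a11, G6pdx and Osgin1, are textbook antioxidant targets of the transcription factor NRF2. They were found by symbol among the 21850 genes of a bulk RNA-seq table of mouse liver cells and were chosen for their known role. Each of 9 conditions had 3 libraries. Freshly isolated C57BL/6 hepatocytes were uncultured, and replicate 3 carries the genotype label MDR2-het although its title says WT. Hepatocyte organoids (HepOrgs) from WT C57BL/6 liver at passage 2 were grown in HM-Wnt or in MM medium for 7 days (1 week) or 14 days (2 weeks). By the paper's methods, HepOrgs for media tests were first kept in HM-Wnt until passage 2 and then moved to the named medium. Periportal assembloids were grown in MM and combined 10 HepOrgs with 1000 cholangiocytes and either 250 (homeostatic) or 2500 (fibrotic-like) portal mesenchymal cells, for 7 days or 18 days (2.5 weeks). All the cultures contained 1.25 mM N-acetylcysteine, a thiol antioxidant and cysteine source, with 30% Wnt conditioned medium and 10 µM ROCK inhibitor. HM-Wnt in addition held growth factors, 10 mM nicotinamide, 3 µM of the GSK3 inhibitor CHIR and 1 µM of the TGF-β receptor inhibitor A83-01. Since no fresh cell received any of these, culture and medium cannot be told apart in a comparison of HepOrgs with fresh hepatocytes.

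NRF2, the product of Nfe2l2, is held in the cytoplasm and marked for degradation by KEAP1. Electrophiles and oxidants modify KEAP1, after which NRF2 accumulates, pairs with a small MAF protein and binds antioxidant response elements, while BACH1 competes for the same elements. Its targets import cystine, build glutathione, reduce thioredoxin, supply NADPH and detoxify quinones and heme, and the hepatocyte relies on them when it metabolises drugs and other foreign compounds. NRF2 itself is regulated largely through its protein, which was not measured here.

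The 27 libraries held 30289364 to 65348596 assigned reads (median 43727965). In the number of genes detected 1 library stood apart. Replicate 2 of the homeostatic assembloids at 1 week had counts for 8465 genes, against 14016 to 16018 in the other 26 libraries. The comparisons of fibrotic-like assembloids at 1 week are given with and without it. Replicate 3 of the fibrotic-like assembloids at 1 week differed in another way: its top 20 genes held 10.9% of its counts, the lowest share of the 27 libraries. Levels are CPM, the reads of a gene scaled to a common library total after TMM normalisation. Summed CPM of 5 hepatocyte markers, all 5 detected in every condition, was 56340 to 86050 in fresh hepatocytes and 11260 to 41990 in HepOrgs, while the sum of 5 cholangiocyte markers was 11.56 to 142.5 in fresh cells and 3532 to 15480 over all cultures. Endothelial markers (5 genes) summed to 24.39 to 115.8 in fresh cells and to at most 2.3 in culture. The 5 immune markers summed to 30.07 to 280.4 in fresh cells and to at most 50.83 in culture, where the Kupffer cell gene Clec4f was at 0 in all groups. Their part in the results was not tested. Fewer cells of a type and less RNA per cell cannot be told apart in bulk RNA.

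Antioxidant response elements are recognised by the core TGACNNNGC, which includes the stricter TGACTCAGC, itself an overlap with the AP-1 site TGACTCA. Both were searched on both strands of GRCm39 upstream of each gene's GENCODE canonical start. Within 300 bases the core occurred at 2 of 9 members, Gclm and Txnrd1, and in 11.2% of the 21616 promoters of annotated genes, while TGACTCAGC occurred at none of the 9 and in 0.375% of promoters. Within 5000 bases the core occurred at 9 of 9 members and upstream of 77.2% of genes, so the presence of a core at that distance is common. TGACTCAGC within 5000 bases occurred at Hmox1 and, at 2 places, at Gclc, against 7.12% of all genes. The 5 windows below show these matches on the strand of the gene, with the matched bases in capitals, which read as the reverse complement of the motif.
Gclm, 54 bases before the start, chr3:122039046-122039106, plus strand, within the span but no exon of a long noncoding RNA gene: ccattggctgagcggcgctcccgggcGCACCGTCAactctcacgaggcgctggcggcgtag
Txnrd1, 65 bases before the start, chr10:82694922-82694982, plus strand, in an exon of the antisense noncoding gene Gm38560 and within the Txnrd1 gene span: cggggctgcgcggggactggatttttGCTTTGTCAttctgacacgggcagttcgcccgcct
Hmox1, 3863 bases before the start, chr8:75816352-75816412, plus strand, in no annotated gene: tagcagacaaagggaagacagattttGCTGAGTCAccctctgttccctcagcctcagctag
Gclc, 3770 bases before the start, chr9:77658001-77658061, plus strand, in an exon of the gene model Gm68850: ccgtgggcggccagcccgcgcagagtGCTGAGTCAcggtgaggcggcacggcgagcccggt
Gclc, 1997 bases before the start, chr9:77659774-77659834, plus strand, in no annotated gene: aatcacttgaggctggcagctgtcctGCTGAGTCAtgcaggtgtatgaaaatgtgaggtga
A match describes the letters only, and binding of NRF2 was not measured.

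Against fresh hepatocytes, HepOrgs in both media at both times had higher transcript levels of Slc7a11, Nqo1 and Srxn1, and higher Hmox1 in 3 of the 4 comparisons, whereas Gclm was lower in 3 of them. Txnrd1, Gclc and Osgin1 did not pass the test in any. The comparison asks how far HepOrgs hold the transcript levels of freshly isolated hepatocytes. The labels do not say that the HepOrgs were grown from these isolates. In HM-Wnt, 4 of the 8 members tested rose and 1 fell at 1 week, where 24.9% of 13405 genes rose and 24.8% fell, and the same counts were found at 2 weeks, where 26.1% rose and 25.7% fell. In MM, 4 rose and 1 fell at 1 week (21.5% and 21.3% of all genes) and 3 rose and none fell at 2 weeks (19.7% and 20%). The median log2 fold change of the 8 members was 0.56 and 1.23 in HM-Wnt and 0.77 and 0.98 in MM at 1 and 2 weeks, where that of all genes lay between -0.01 and 0.03. Without Slc7a11 it was -0.17, 0.48, 0.10 and 0.38. All 4 comparisons share the 3 fresh libraries, so they are not independent of each other. These tests are edgeR's quasi-likelihood test with Benjamini-Hochberg adjustment, as are all adjusted p below unless another tool is named. Nothing in the labels says that replicates came from separate animals, so a p measures the spread between these libraries.

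**Figure D1:**
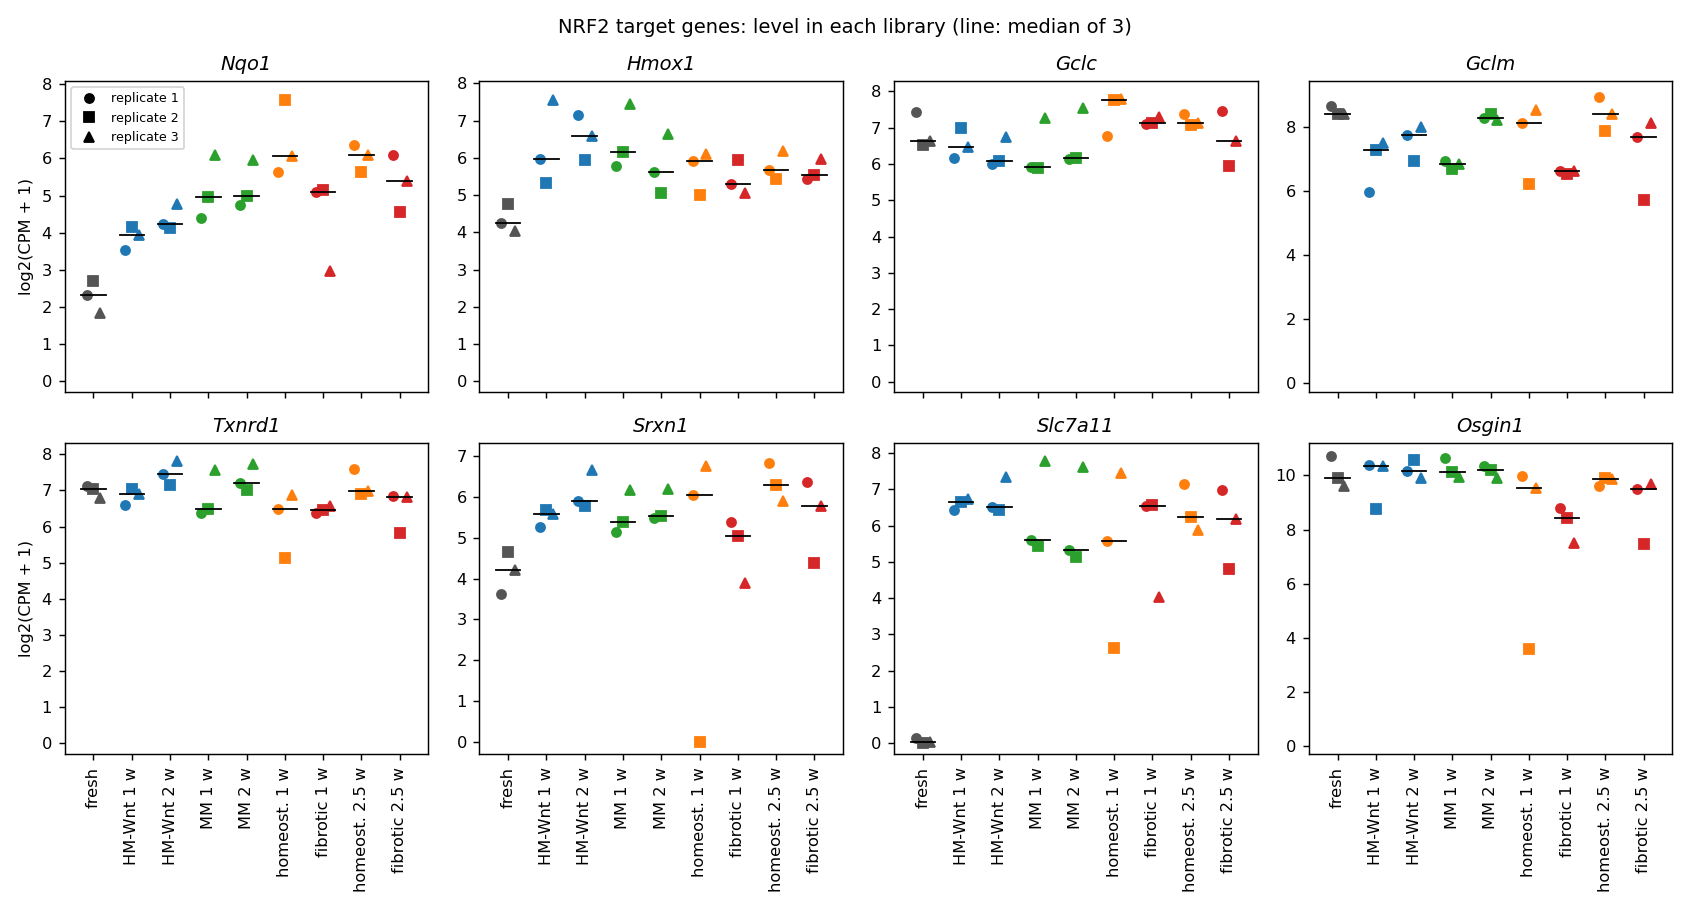
Level of each NRF2 target, as log2(CPM + 1), in each of the 3 libraries of the 9 conditions; points are libraries and lines are medians. Slc7a11 is near 0 in the 3 fresh libraries and present in all cultures, and G6pdx is not drawn because it had no count in any of the 27 libraries.

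Slc7a11 (ENSMUSG00000027737, GRCm39 chr3:49846975-50398070, minus strand) encodes the light chain of the cystine/glutamate antiporter xCT, which brings in cystine for glutathione synthesis. In fresh hepatocytes its level was 0.107, 0 and 0.0304 CPM, from 5 reads over the 3 libraries. In HM-Wnt it was 85.6, 100.2 and 105.8 CPM at 1 week and 90.6, 85.6 and 162 CPM at 2 weeks, and in MM it was 47.8, 42.5 and 218.7 CPM at 1 week and 38.9, 33.9 and 194.7 CPM at 2 weeks. Each HepOrg library lay far above each fresh one, and in MM replicate 3 was the highest at both times. The ratio of pooled CPM to fresh cells was 1825 (95% Poisson interval 782 to 5622) and 2067 (886 to 6366) in HM-Wnt, and 2005 (859 to 6174) and 1561 (669 to 4807) in MM, intervals that cover counting error only. The fitted log2 fold changes, which depend on the prior count at so low a fresh level, were 10.71, 10.93, 10.80 and 10.61, with adjusted p from 7.36e-06 to 1.44e-05. Single libraries moved them: without fresh replicate 1, which held 4 of the 5 reads, they were 12.06 to 12.34, and in MM they were 9.66 at 1 week and 9.40 at 2 weeks without replicate 3, with the call kept in each case. On log2(TPM + 1), where low levels are compressed, the call at 2 weeks in MM was lost (limma adjusted p = 0.0643). The assembloids also held Slc7a11, at 5.17 to 172.4 CPM, so the gap to fresh hepatocytes was the largest step in its order of conditions, and every neighbouring pair above it overlapped.

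Gclc (ENSMUSG00000032350, chr9:77661797-77701770, plus strand) and Gclm (ENSMUSG00000028124, chr3:122039126-122065061, plus strand) encode the catalytic and modifier subunits of glutamate-cysteine ligase, the rate-limiting enzyme of glutathione synthesis. Gclm was called lower than in fresh cells at 1 week in both media and at 2 weeks in HM-Wnt. Gclc was called in no comparison with fresh cells, and the difference between the genes was not tested. Gclm was at 407, 335.6 and 337.8 CPM in fresh hepatocytes, at 61.2, 155.2 and 179.1 CPM in HM-Wnt at 1 week, and at 120.6, 101.1 and 113.4 CPM in MM at 1 week. The HepOrg libraries at 1 week all lay below the fresh ones. Gclm fell by 1.5 ± 0.34 (log2, standard error) in HM-Wnt (adjusted p = 0.0024) and by 1.71 ± 0.34 in MM (adjusted p = 0.00138). At 2 weeks it was 214.7, 121.1 and 256.9 CPM in HM-Wnt, still below every fresh library, with a fall of 0.91 ± 0.33 (adjusted p = 0.0349), and 313.4, 340.6 and 300.5 CPM in MM, which overlapped the fresh libraries (log2 fold change -0.17, adjusted p = 0.716). The 2-week HM-Wnt call was not stable: it was lost without fresh replicate 1 (adjusted p = 0.0883), without fresh replicate 3 (0.0523), without HM-Wnt 2 weeks replicate 1 (0.0633) or replicate 2 (0.124), and by limma on TPM (0.731). Without fresh replicate 3, the library with the differing genotype label, no other call of a member against fresh cells changed. In the edgeR fit of all 27 libraries the falls at 1 and 2 weeks in HM-Wnt were both lost (adjusted p = 0.0564 and 0.266). Gclc was at 171, 91.8 and 99.2 CPM in fresh cells and at 58.3 to 186.2 CPM over the 12 HepOrg libraries, so the groups overlapped, and its log2 fold changes ran from -0.66 in HM-Wnt at 2 weeks to -0.16 in MM at 2 weeks (adjusted p from 0.226 to 0.805), with positive values on the TPM scale in all 4 comparisons.

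Txnrd1 (ENSMUSG00000020250, chr10:82669785-82733546, plus strand) encodes cytosolic thioredoxin reductase, and Srxn1 (ENSMUSG00000032802, chr2:151947436-151957687, plus strand) encodes sulfiredoxin, which restores overoxidised peroxiredoxins. Srxn1 was at 11.3, 24.2 and 17.4 CPM in fresh hepatocytes, at 37.1, 50.2 and 46.7 CPM in HM-Wnt at 1 week, and at 58.7, 53.9 and 99.6 CPM at 2 weeks. In MM it was at 34.4, 40.9 and 70.9 CPM at 1 week and at 43.7, 45.5 and 71.6 CPM at 2 weeks. Every HepOrg library lay above every fresh one. The log2 fold changes of Srxn1 were 1.29 ± 0.33, 1.97 ± 0.34, 1.44 ± 0.33 and 1.61 ± 0.33 (standard errors; HM-Wnt then MM, 1 then 2 weeks), with adjusted p = 0.00573, 0.000336, 0.00373 and 0.00198. The fit of all 27 libraries, in which 1 assembloid library had no Srxn1 read, lost all 4 calls (adjusted p from 0.219 to 0.45). Txnrd1 was at 137.5, 130.8 and 108.9 CPM in fresh cells and at 82.8 to 225.1 CPM in HepOrgs. Those ranges overlapped, and its fold changes of -0.17 to 0.48 did not pass the test (lowest adjusted p = 0.18, HM-Wnt at 2 weeks, where limma on TPM gave 1.20 with adjusted p = 0.00807).

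Nqo1 (ENSMUSG00000003849, chr8:108113835-108129934, minus strand) encodes the NADPH quinone reductase that converts quinones to hydroquinones, a widely used readout of NRF2 activity. It was at 3.97, 5.51 and 2.59 CPM in fresh hepatocytes. In HM-Wnt it was at 10.5, 16.9 and 14.3 CPM at 1 week and 17.8, 16.5 and 26.4 CPM at 2 weeks, and in MM at 20.1, 29.9 and 67.4 CPM at 1 week and 25.7, 30.8 and 61.0 CPM at 2 weeks. All 12 HepOrg libraries exceeded the highest fresh one. Nqo1 rose 3.35-fold and 4.92-fold in HM-Wnt (log2 1.75 ± 0.44, adjusted p = 0.00515, and 2.30 ± 0.45, adjusted p = 0.000828) and 9.56-fold and 9.76-fold in MM (log2 3.26 ± 0.46, adjusted p = 0.000112, and 3.29 ± 0.46, adjusted p = 0.000116). Without MM 1 week replicate 3, the highest library, the log2 fold change in MM at 1 week was 2.66 and still passed (adjusted p = 0.000259).

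Hmox1 (ENSMUSG00000005413, chr8:75820241-75827217, plus strand) encodes heme oxygenase 1, the inducible enzyme that opens the heme ring. It was at 18.0, 26.2 and 15.4 CPM in fresh hepatocytes, at 61.5, 39.3 and 188.5 CPM in HM-Wnt at 1 week, and at 142.0, 60.1 and 94.7 CPM at 2 weeks. In MM it was at 53.8, 70.6 and 174.8 CPM at 1 week and 48.0, 32.5 and 98.6 CPM at 2 weeks. No HepOrg library overlapped the fresh ones, and replicates within a HepOrg group differed several-fold. The rises were 4.73-fold and 4.86-fold in HM-Wnt (adjusted p = 0.00859 and 0.00735) and 4.91-fold in MM at 1 week (0.00914), while at 2 weeks in MM a log2 fold change of 1.58 ± 0.60 missed the threshold (adjusted p = 0.0515). That last value passed with DESeq2 (0.0171), with limma on TPM (0.0298) and with at least 10 counts required in every library (0.045), and also without MM 2 weeks replicate 2 (0.0394). Without HM-Wnt 1 week replicate 3, the highest library, the log2 fold change in HM-Wnt at 1 week was 1.31 and the call was lost (0.064), and without MM 1 week replicate 3 that in MM at 1 week was 1.67 (0.047).

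Osgin1 (ENSMUSG00000074063, chr8:120152470-120173000, plus strand), an oxidative stress induced growth inhibitor gene, was the most abundant member in every condition. Its level was 1672, 962.5 and 790.1 CPM in fresh cells and 430.3 to 1605 CPM in HepOrgs, which overlapped throughout. The log2 fold changes were -0.20, 0.05, 0.10 and 0.03 with adjusted p from 0.707 to 0.96. G6pdx (ENSMUSG00000031400, chrX:73449857-73472819, minus strand), encoding the glucose-6-phosphate dehydrogenase that feeds NADPH to these enzymes, had 0 counts in 27 of 27 libraries and was not tested. Its span lies wholly within that of Ikbkg on the opposite strand, which had 77655 counts, and 704 (83.0%) of the 848 protein-coding genes lying inside another such gene were at 0, against 11.9% of the other 20768. The 0 is therefore given as a listed value and not as a level of the gene. The noncoding genes that overlap the spans of other members were not in the table, and whether reads of either strand were counted is not given in the sources used here.

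**Figure D2:**
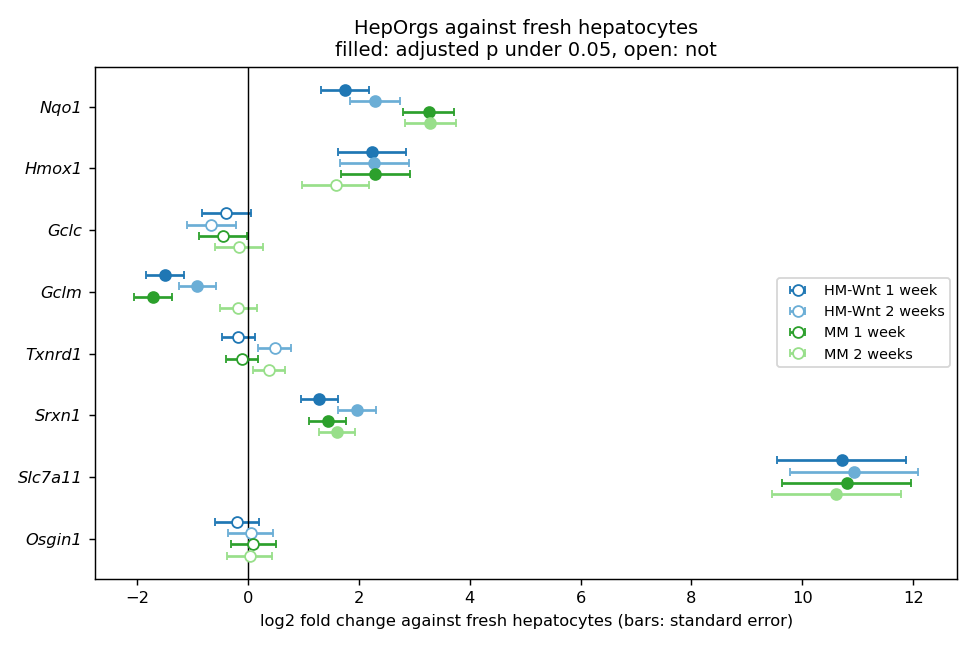
Log2 fold change (x axis) of the 8 tested members in the 4 HepOrg groups against fresh hepatocytes, with standard errors; filled points had an adjusted p under 0.05. Slc7a11 lies near 11, and Nqo1 and Srxn1 are to the right of 0 in all groups. Gclm lies to the left of 0 in all 4, close to 0 and open in MM at 2 weeks (-0.17), and filled in the other 3.

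Per kilobase of canonical transcript, used here as a rough scale between genes, the order in fresh hepatocytes by median level was Osgin1 (478.9 CPM per kb), Gclm (53.2), Txnrd1 (39.3), Gclc (28.8), Hmox1 (11.4), Srxn1 (2.41), Nqo1 (1.49) and Slc7a11 (0.0033). The place behind Osgin1 went to Hmox1 in HM-Wnt at 1 week (39.0 CPM per kb), in HM-Wnt at 2 weeks (60.0) and in MM at 1 week (44.8). It went to Gclm in MM at 2 weeks (49.4) and in homeostatic assembloids at 2.5 weeks (53.8), and to Gclc in homeostatic (63.1) and fibrotic-like (40.2) assembloids at 1 week. In fibrotic-like assembloids at 2.5 weeks it went to Txnrd1 (33.7). The deposited length of a gene was within 5% of its whole span for 80.82% of genes, so reads were not normalised here by the deposited length. Whether the counts include intronic reads was not tested. If they do, the canonical transcript is not the matching length, so the order between genes is provisional.

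**Figure D3:**
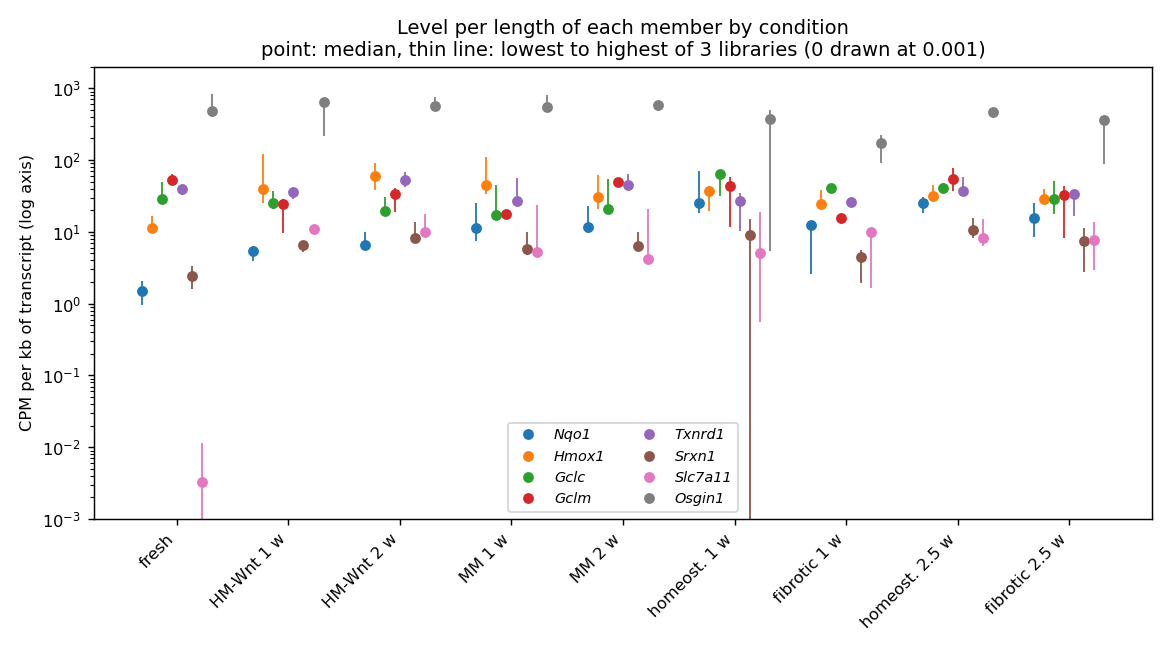
Median CPM per kilobase of canonical transcript (log axis) of the members in the 9 conditions; thin lines run from the lowest to the highest of 3 libraries, and 0 is drawn at 0.001. Osgin1 is highest throughout (171.4 to 647.5), and Slc7a11 lies far below the others in fresh cells and much closer to them in culture. Its median was still the lowest of the members drawn in MM HepOrgs and in homeostatic assembloids, at both times. The order between genes is provisional, since whether the counts include intronic reads was not tested.

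Nfe2l2, the gene of NRF2, was itself higher in HepOrgs. It was at 84.4, 74.8 and 52.5 CPM in fresh hepatocytes, at 137.1 to 181.9 CPM in HM-Wnt and at 155.3 to 191.1 CPM in MM, with no overlap. Its log2 fold changes were 1.03, 1.24, 1.22 and 1.43 (each ± 0.17; adjusted p from 2.66e-05 to 0.000234). Keap1, its cytoplasmic repressor, was at 57.8 to 69.1 CPM in fresh cells and at 23.3 to 81.9 CPM in HepOrgs and did not pass the test (log2 fold changes -0.48 to 0.09). The competitor Bach1 was at 23.4, 7.62 and 6.09 CPM in fresh cells, with replicate 1 the highest, and at 5.16 to 9.53 CPM in HepOrgs, a range that holds fresh replicates 2 and 3, and did not pass either (log2 fold changes -0.92 to -0.59, lowest adjusted p = 0.0703). Sqstm1, whose product p62 binds KEAP1, fell by 0.63 in HM-Wnt at 1 week (adjusted p = 0.0411) and did not pass elsewhere. Of the 10 regulators in the list 2, 3, 2 and 3 rose and 2, 1, 1 and 1 fell, against 24.9%, 26.1%, 21.5% and 19.7% of all genes that rose and 24.8%, 25.7%, 21.3% and 20% that fell, so these counts are near those of genes in general. Among them the small MAF gene Mafg fell in all 4 comparisons (by 0.69 to 1.21), and another small MAF gene, Mafk, rose in 3 (log2 fold changes 0.95, 1.13 and 1.02).

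Of 23 other NRF2 targets tested, from a list of 24, 8, 8, 10 and 9 rose and 5, 4, 2 and 2 fell against fresh cells (HM-Wnt then MM, 1 then 2 weeks), with medians of 0.29, 0.30, 0.54 and 0.42. Over all genes 19.7% to 26.1% rose and 20% to 25.7% fell in these comparisons, the background for this list and for those that follow, and the falls in HM-Wnt at 1 week were near it. Cbr3, a carbonyl reductase, went from 0.0266 to 0.365 CPM in fresh cells to 9.04 to 143.2 CPM in HepOrgs, with fitted log2 fold changes of 6.19, 7.33, 8.67 and 8.38, which depend on the prior count at so low a fresh level. Abcc4, an organic anion exporter, rose by 4.75, 5.37, 4.23 and 4.19, and Ptgr1, a prostaglandin reductase, by 2.58 in HM-Wnt at 1 week. Mgst1, a microsomal glutathione transferase abundant in liver, fell by 2.12, 2.84, 1.64 and 1.70, and Gstp1, a cytosolic one, by 0.98 and 1.30 in MM. Of 16 glutathione and peroxide defence genes tested, from a list of 17 that holds no member, 3, 2, 4 and 4 rose and 8, 9, 8 and 7 fell, with medians of -0.60, -0.68, -0.50 and -0.38. Catalase (Cat) fell by 2.62, 2.56, 1.73 and 1.62, from 4911 to 5149 CPM in fresh cells to 750.8 to 1738 CPM in HepOrgs, and the secreted peroxidase gene Gpx3 rose by 2.96, 3.46, 2.37 and 2.79. Slc7a11 is also a target of ATF4, the factor of the amino acid and stress response. In a list of 10 genes (Atf4 itself and other ATF4 targets) 7, 8, 6 and 7 rose and 0, 0, 0 and 1 (Atf3) fell. Their medians were 2.7, 2.76, 2.7 and 2.96, and the part of ATF4 in the Slc7a11 level was not tested. The serine synthesis genes Psat1 (7.76, 7.84, 7.03 and 7.24) and Phgdh (7.35, 7.80, 6.73 and 6.72) led that list.

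MM and HM-Wnt were compared to ask what the medium changes. Nqo1 had the largest difference among the members: each MM library at 1 week (20.1 to 67.4 CPM) exceeded each HM-Wnt library (10.5 to 16.9 CPM), and at 2 weeks the ranges met (25.7 to 61.0 against 16.5 to 26.4 CPM). In 6 of 6 pairs of libraries with the same replicate number Nqo1 was higher in MM. The same replicate numbers recur at both times, so these pairs are not independent of each other. In the fit without pairing its log2 difference was 1.5 ± 0.42 at 1 week (adjusted p = 0.0742) and 1.00 ± 0.42 at 2 weeks (adjusted p = 0.141), so that 0 of 8 members passed at either time (1 of 8 at an unadjusted p under 0.05 at each), where 1.76% of 12989 genes rose and 1.22% fell at 1 week and 6.84% and 4.61% at 2 weeks. With the replicate number as a block, since same-numbered HepOrg libraries deviated together, Nqo1 passed at both times, with 1.35 (adjusted p = 0.0133) and 0.93 (adjusted p = 0.0275), where 5.62% and 11% of genes were called higher in MM. DESeq2 without pairing called Nqo1 at 1 week only (adjusted p = 0.00848) and no member at 2 weeks. The other members did not pass at either time in any of these fits. Their log2 differences ran from -0.22 (Gclm) to 0.28 (Osgin1) at 1 week and from -0.68 (Hmox1, adjusted p = 0.519) to 0.75 (Gclm, adjusted p = 0.181) at 2 weeks.

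**Figure D4:**
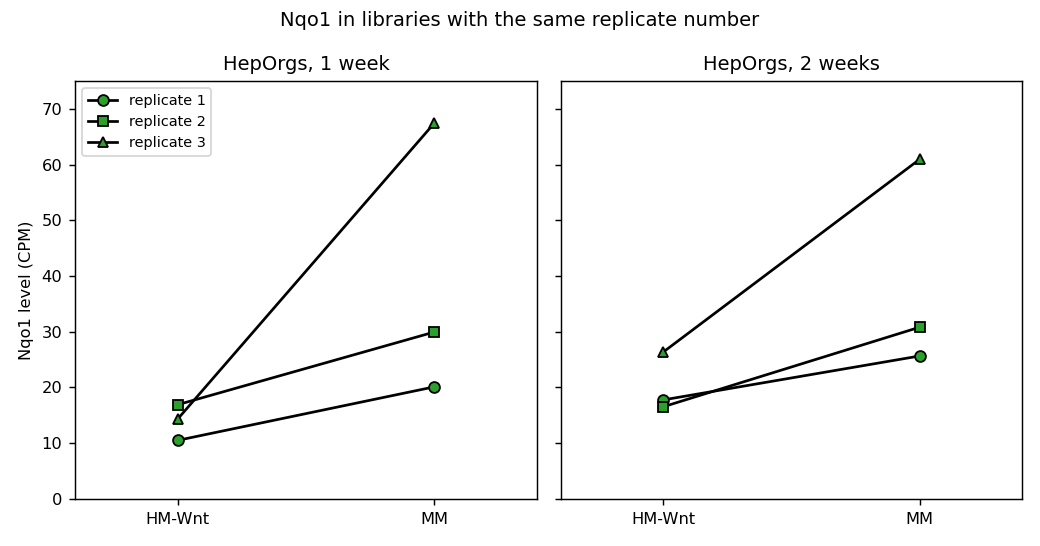
Nqo1 level (CPM, y axis from 0) in HM-Wnt and MM HepOrgs at 1 week and 2 weeks, with lines joining libraries of the same replicate number. The line rises from HM-Wnt to MM in 6 of 6 pairs, most steeply for replicate 3 at 1 week (14.3 to 67.4 CPM). The same replicate numbers recur at both times, so the pairs are not independent.

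Of the 23 other NRF2 targets 5 were higher in MM and 0 lower at each time (medians 0.38 and 0.27), and of the 16 defence genes 4 and then 6 were higher and 0 lower (medians 0.34 and 0.43). Over all genes 1.76% were higher and 1.22% lower at 1 week, and 6.84% and 4.61% at 2 weeks, in the same fit without pairing. At 1 week these included Cbr3 (log2 difference 2.46), the exporter gene Abcc3 (1.74) and Me1 (1.56), which encodes the NADP-dependent malic enzyme. At 2 weeks Mgst1 (1.16), Me1 (1.00) and Abcc3 (0.96) led. Of the defence genes Gpx1 (1.22 and 1.35) and Cat (0.88 and 0.95) were higher at both times. None of the 10 regulators and none of the 10 genes in the ATF4 list passed. Summed hepatocyte markers were lower in MM (11260 to 26150 CPM) than in HM-Wnt (22430 to 41990 CPM), and the part of this in the differences was not tested.

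Times of 1 and 2 weeks in each medium at passage 2 were compared, and no member passed the edgeR test. From 1 to 2 weeks in HM-Wnt the log2 differences ran from -0.27 (Gclc) to 0.67 (Srxn1, lowest adjusted p = 0.556), with 1 of 8 at an unadjusted p under 0.05 and 0% of genes called. In MM they ran from -0.69 (Hmox1) to 1.56 (Gclm). Gclm, at 101.1 to 120.6 CPM at 1 week and 300.5 to 340.6 CPM at 2 weeks, showed no overlap, yet its adjusted p was 0.143 where 0.0154% of genes (2 of 12989) were called, and DESeq2 called it (adjusted p = 0.00231). DESeq2 called no other member in any of these time comparisons. The difference between the media in the change over time lay between -0.72 (Hmox1) and 0.97 (Gclm), with a lowest adjusted p of 0.673, no member at an unadjusted p under 0.05 and 0% of genes called.

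In assembloids the members were compared between the ratios of mesenchyme. None of the 8 passed at 1 or 2.5 weeks, and the direction of the members depended on the scaling. In the fits of counts 7 of 8 were lower in fibrotic-like assembloids at 1 week and 8 of 8 at 2.5 weeks, whereas by limma on log2(TPM + 1) 2 of 8 and 5 of 8 were lower. The median log2 difference in the fits of counts was -0.66 and -0.64 for the members and 0.20 and 0.03 for all genes. At 1 week Nqo1 was at 48.8, 190.7 and 66.3 CPM in homeostatic and 33.1, 34.4 and 6.88 CPM in fibrotic-like assembloids, so that the homeostatic libraries were all higher. Its log2 difference was -2.10 ± 0.70 (adjusted p = 0.291), the lowest of the members, and without homeostatic replicate 2, the highest library, it was -1.27 (0.172). Gclm was at 280.1, 73.4 and 366.7 CPM against 98.2, 90.7 and 98.6 CPM, and Osgin1 at 1001, 10.9 and 742.1 CPM against 445.1, 344.6 and 180.7 CPM. In both the low homeostatic value was that of replicate 2, and without it the homeostatic libraries were all higher. Srxn1 was at 65.1, 0 and 107.1 CPM against 40.6, 31.8 and 13.9 CPM.

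With replicate 2 in, Gclm differed by -1.38 (adjusted p = 0.371), Srxn1 by -1.05 (0.802) and Osgin1 by -0.92 (0.751), and 0% of 14253 genes were called (1 of 8 members and 2012 genes at an unadjusted p under 0.05; DESeq2 called 0 members). Without it they differed by -1.81 (adjusted p = 0.0647), -1.64 (0.086) and -1.49 (0.104), and 4.87% of genes were called lower, none of them a member. In a fit of the other 26 libraries of all conditions these 3 passed, with -1.80 (adjusted p = 0.0121), -1.62 (0.0221) and -1.48 (0.0455), where 12.4% of genes were called lower. Summed hepatocyte markers were at 899.9 to 26220 CPM in homeostatic and 1526 to 14160 CPM in fibrotic-like assembloids at 1 week, lowest in homeostatic replicate 2 and in fibrotic-like replicate 3. In fibrotic-like replicate 3 Nqo1, Hmox1, Srxn1, Osgin1 and Slc7a11 (15.3 CPM, against 91.3 and 94.5 CPM in replicates 1 and 2) were the lowest of the group. Gclc (157.4 CPM), Gclm (98.6 CPM) and Txnrd1 (94.1 CPM) were its highest. In homeostatic replicate 2 Nqo1 was the highest of its group (190.7 CPM). Summed levels of 6 mesenchyme markers were 133 to 821.6 CPM and 294.4 to 6112 CPM in the respective groups, and 18.46 to 252.4 CPM in HepOrgs. The lowest fibrotic-like value was that of replicate 3, within the homeostatic range, with 2561 and 6112 CPM in replicates 1 and 2. The part of the markers in the member levels was not tested.

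At 2.5 weeks the log2 differences of the members lay between -1.02 (Gclm, adjusted p = 0.887) and -0.17 (Hmox1), none at an unadjusted p under 0.05, with 0% of genes called by edgeR and no member by DESeq2. Nqo1 was at 81.3, 48.4 and 66.8 CPM in homeostatic and 67.4, 22.6 and 41.0 CPM in fibrotic-like assembloids. Gclm was at 490.2, 233 and 341.7 CPM against 206.3, 51.9 and 278.3 CPM, and Osgin1 at 772.5, 969.7 and 943 CPM against 720.5, 176.7 and 817.3 CPM. Replicate 2 was the lowest fibrotic-like library for 7 of the 8 members, and all 3 of these genes overlapped between the ratios. That library also had the lowest summed hepatocyte markers of its group (6528 CPM, group maximum 25460 CPM), where homeostatic assembloids at that time had 18710 to 20410 CPM.

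**Figure D5:**
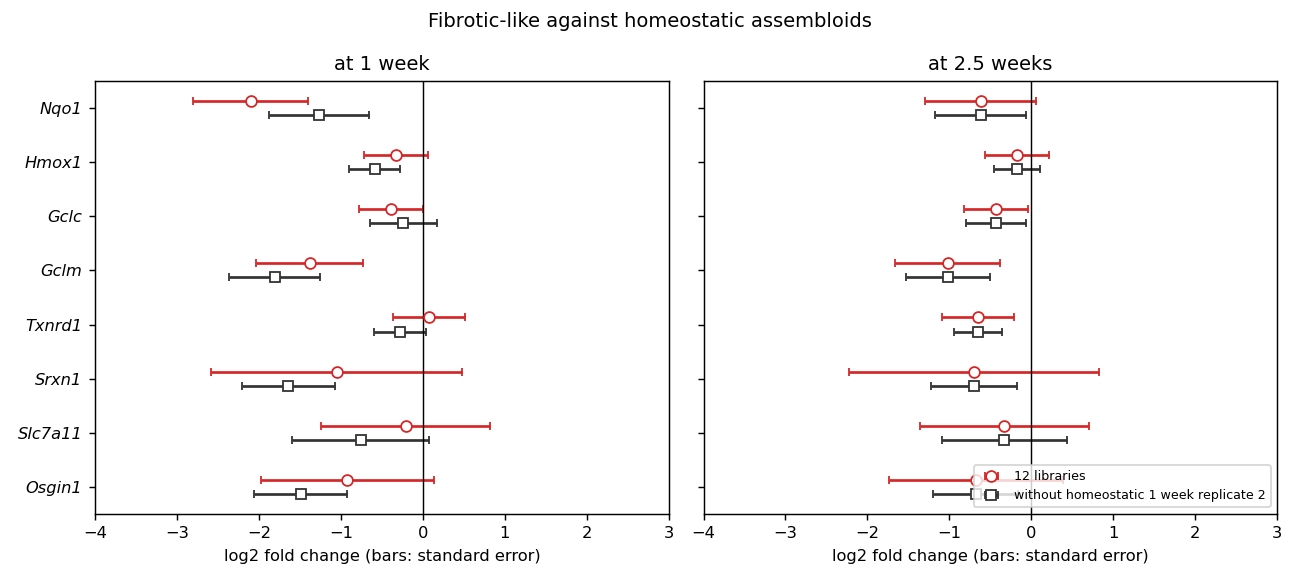
Log2 fold change (x axis, with standard errors) of 8 members in fibrotic-like against homeostatic assembloids at 1 week and at 2.5 weeks; circles are the fit of 12 libraries and squares the fit without homeostatic 1 week replicate 2. All points are open because none passed, and at 2.5 weeks all 8 circles lie left of 0, whereas on log2(TPM + 1) 5 of 8 members were lower.

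Over time the members' log2 differences ran from -0.64 (Nqo1) to 0.86 (Txnrd1) in homeostatic and from -0.35 (Gclc) to 0.93 (Gclm) in fibrotic-like assembloids, with lowest adjusted p of 0.803 and 1.0. The difference between the ratios in that change lay between -0.73 (Txnrd1) and 1.48 (Nqo1). In these 3 comparisons 0% of genes were called, no member had an unadjusted p under 0.05, and DESeq2 called no member.

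Set against HepOrgs in the same medium at 1 week, homeostatic assembloids had log2 differences from -1.07 (Osgin1) to 1.46 (Nqo1, adjusted p = 0.316), with 2 of 8 at an unadjusted p under 0.05 and 0% of 14386 genes called. Both of these extremes depended on homeostatic replicate 2. With it left out, Osgin1 differed by -0.51 (adjusted p = 0.718), Nqo1 by 0.55 (0.757) and Gclm by 1.53 (0.206). Fibrotic-like assembloids had differences from -1.98 (Osgin1, adjusted p = 0.238) to 0.63 (Gclc), also with 2 of 8 at an unadjusted p under 0.05, where 0.361% of genes were called higher and 0.389% lower. No member passed in either. Osgin1 was at 989.9 to 1605 CPM in MM HepOrgs and at 180.7 to 445.1 CPM in fibrotic-like assembloids, without overlap. Without homeostatic replicate 2, which enters the spread of that fit, Osgin1 (-2.0 ± 0.47, adjusted p = 0.00685) and Hmox1 (-1.25 ± 0.45, adjusted p = 0.0439) passed as lower, where 16.5% of genes did. With that library left out Osgin1 also passed with the replicate block (adjusted p = 0.00961) and in the fit of 26 libraries (0.00527), whereas the Hmox1 call was lost in both (0.0526 and 0.0746). Nfe2l2 was at 200.8 to 425.9 CPM in assembloids, above the 191.1 CPM that was its highest HepOrg value. Without homeostatic 1 week replicate 2 its highest assembloid value was 334.2 CPM. Against MM HepOrgs at 1 week Nfe2l2 did not pass in homeostatic (log2 difference 0.90, adjusted p = 0.148) or fibrotic-like assembloids (0.66, adjusted p = 0.151).

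Across conditions the order of median Nqo1 levels ran from homeostatic assembloids at 2.5 weeks (66.8 CPM) and 1 week (66.3) through fibrotic-like assembloids (41.0 at 2.5 weeks, 33.1 at 1 week), MM HepOrgs (30.8 and 29.9) and HM-Wnt HepOrgs (17.8 and 14.3) to fresh hepatocytes (3.97). Each neighbouring pair in this order overlapped except HM-Wnt at 1 week and fresh cells. Hmox1 and Slc7a11 also had a gap only above fresh hepatocytes, whereas Gclm had 1 only between MM HepOrgs at 1 week (median 113.4 CPM) and fibrotic-like assembloids at 1 week (98.2). Gclc, Txnrd1, Srxn1 and Osgin1 had none between neighbours.

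The members did not rise and fall together throughout. Over 27 libraries, 21 of 28 pairs had a Spearman correlation above 0, with a median of 0.28, from -0.48 (Gclc with Osgin1) to 0.77 (Slc7a11 with Srxn1). The nearest members of the others were Nqo1 for Gclc (0.53), Txnrd1 for Gclm (0.58), Slc7a11 for Hmox1 (0.68), Srxn1 for Nqo1 (0.57) and Txnrd1 for Osgin1 (0.37). These values are a description, since libraries share conditions and scaling. Among 7492 non-member genes, those most like the mean of the members' centred log2 CPM were Slc48a1 (0.89), a heme transporter, Rragd (0.88), a Rag GTPase, Slc35g1 (0.87), Pgs1 (0.82), a phospholipid synthesis enzyme, and Adamtsl5 (0.81), and without homeostatic 1 week replicate 2 the values were 0.87, 0.87, 0.85, 0.80 and 0.84. The members were centred but not scaled, so Slc7a11, with by far the largest change against fresh cells, weighs heavily in that mean.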

How the data were processed

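The authors aligned paired-end SMART-seq2 reads to GRCm39 with STAR. With featureCounts they assigned reads to exons, transcripts and coding sequences, and the deposited counts are listed per gene. The deposited counts, whole numbers, were used as deposited; their strand setting is not given in the sources used here. The deposited TPM values, which the authors computed from those counts and a gene length, served an alternative only. Of 37 columns of libraries, 27 match labelled samples and 10 were not used. Positions are from GENCODE on GRCm39.

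Counts were tested with edgeR 4.0.16 in R 4.3.3 (TMM, filterByExpr with a minimum count of 10 and total of 15, quasi-likelihood, Benjamini-Hochberg over all genes, threshold 0.05, two-sided), in separate fits of fresh cells with HepOrgs (15 libraries), HepOrgs (12), assembloids (12), and assembloids with MM HepOrgs (18). Alternatives were RLE size factors, DESeq2 1.42.0, a floor of 10 counts per library, every gene kept, limma 3.58.1 on log2(TPM + 1), all 27 libraries in 1 fit, the replicate block, and each replicate left out. Leaving out homeostatic 1 week replicate 2 (also with the block or in 1 fit of 26 libraries) was added after seeing the data. The code was tested on simulated counts. Same-numbered HepOrg libraries deviated together in 18 of 18 pairs (correlations 0.127 to 0.503; numbers from the titles), and pairs with different numbers did so in 2 of 36.

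Members, lists and tests were chosen with earlier results of these data known. Named are all 9 members, Nfe2l2, Keap1, Bach1 and Sqstm1, up to 3 highest and 3 lowest called genes per list and comparison, the members' nearest members and the 5 non-member genes most like them. The lists were regulators, other NRF2 targets, glutathione and peroxide defence, Atf4 with its targets, and cell type markers.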

Additional observations from a re-analysis of the deposited data

How the results depend on the processing

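Of the members' log2 fold changes under the alternatives (all 8 against fresh cells, elsewhere the highest, the lowest and those called by any setting), 814 kept direction and side of the threshold, 19 passed newly, 14 no longer passed and 37 changed direction, and of the counts of members 235 stayed within 1.5 times and 11 moved. The count of members was 3 for HM-Wnt at 1 and at 2 weeks against fresh cells with all 27 libraries in 1 fit. For MM against HM-Wnt it was 1 with DESeq2 at 1 week and 1 with the replicate block at both times, and for MM over time 1 with DESeq2. For fibrotic-like against homeostatic at 1 week it was 1 with 27 libraries (Nqo1) and 3 with 26. For fibrotic-like assembloids against MM HepOrgs it was 1 with the block without homeostatic 1 week replicate 2, 1 with 26 libraries, and 0 to 2 when a replicate was left out. The block changed no other call in HepOrgs; numbers pair assembloids in 6 of 18 cases, where the block is no evidence of pairing.

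On log2(TPM + 1), where the median of all genes against fresh cells was 0.40, 0.68, 0.47 and 0.40, direction changed for Gclc against fresh cells (0.15, 0.17, 0.09 and 0.26), Txnrd1 (0.32 in HM-Wnt, 0.41 in MM, 1 week), Osgin1 (0.23, HM-Wnt, 1 week) and Gclm (0.35, MM, 2 weeks), for Gclm between media at 1 week (0.01), for Gclc over time in HM-Wnt (0.02), and in fibrotic-like against homeostatic assembloids for Srxn1 (1.49) and Osgin1 (1.25) at 1 week and Hmox1 (0.42) at 2.5 weeks. Counting all 8 members, the sign on this scale differed from the fit of counts for 5 and 3 between the ratios at 1 and 2.5 weeks (Hmox1, Gclc and Slc7a11 at both), for 5 in fibrotic-like assembloids against MM HepOrgs, for 4 in the ratio by time, for 3 in fibrotic-like assembloids over time, and for 0 to 1 in the others not against fresh cells. Without homeostatic 1 week replicate 2, Txnrd1 between the ratios at 1 week was -0.11 with the block and -0.27 with 26 libraries, and Nqo1 over time in homeostatic assembloids was 0.18 and 0.19. The cause was not tested. When a replicate was left out, Osgin1 against fresh cells ran from -0.43 to 0.21, -0.17 to 0.44, -0.15 to 0.50 and -0.15 to 0.44, Txnrd1 in MM at 1 week from -0.54 to 0.11, Gclc in MM at 2 weeks from -0.72 to 0.22, and Gclm between media at 1 week from -0.54 to 0.11. Between the ratios Txnrd1 ran from -0.28 to 0.44 at 1 week and Hmox1 from -0.36 to 0.06 at 2.5 weeks, and Nqo1 over time in homeostatic assembloids from -0.92 to 0.19.

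Counts of genes past the threshold against fresh cells were 6666, 6942, 5738 and 5321 and, with 27 libraries in 1 fit, 2893, 3248, 2005 and 1890. Between media they ran from 0 to 1420 (387 reported) and from 7 to 2544 (1488), for MM over time from 0 to 308 (2), between the ratios from 0 to 3544 at 1 week and 0 to 1065 at 2.5 weeks (0 at both), and against MM HepOrgs from 0 to 1283 (0) and 0 to 5444 (108). With 3 libraries a group, 1 library decides many of these values. Low counts limit Slc7a11 and Cbr3 in fresh cells and Srxn1 in homeostatic 1 week replicate 2.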
